A study of Mus musculus with 18 samples.

Results

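The Bcl2 family genes described here are 10 genes that promote or restrain the mitochondrial route of cell death: Bcl2, Bcl2l1, Mcl1, Bcl2a1b, Bid, Bad, Bax, Bak1, Bcl2l11 and Bbc3. They were taken by gene name from the deposited differential expression tables and joined by Ensembl identifier to a count table of 22619 genes, in which all 10 were found. The data are RNA sequencing counts of thymocytes sorted from wild-type mouse thymi 28 days after grafting. DN3 cells are the double-negative stage that carries neither CD4 nor CD8 and rearranges the T-cell receptor beta gene. DP cells come after them and carry CD4 together with CD8.

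The 18 libraries form 4 groups. Each cell type has 4 turnover and 5 autonomy libraries. In work on thymus grafts, turnover is the state in which thymocytes are replaced by progenitors arriving from the host, and autonomy is the state in which the graft keeps up thymocyte production without them. All groups share the wild-type graft and its 28 days. The sources used here do not give the host's genotype, strain, sex or age. The turnover libraries carry the numbers RP1140 and RP1141, each with a letter A or B, and the autonomy libraries carry other RP numbers without a letter. No label states that each library is a separate animal, so each p-value reflects only the spread among the libraries in hand, part of which may be technical.

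As background, proteins of this family decide whether the outer membrane of the mitochondrion is opened. Bax and Bak1 form the pore, Bcl2, Bcl2l1 (Bcl-xL), Mcl1 and Bcl2a1b (A1) hold them in check, and the BH3-only proteins Bid, Bad, Bcl2l11 (Bim) and Bbc3 (Puma) engage the restraining proteins or the pore formers. In the thymus, Bcl2 and Mcl1 are linked to survival signals such as interleukin 7 at the double-negative stage, Bcl2l1 to survival of DP cells, and Bcl2l11 and Bbc3 to deletion of DP cells.

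Levels are given in CPM, which is counts scaled by library size with TMM factors, and, where genes are set side by side, in CPM per kilobase of annotated exon. Total counts ran from 7426834 to 21808512 in DN3 libraries and from 5032273 to 24191044 in DP libraries. A count of 0 allows a level of up to 0.115 to 0.565 CPM depending on the library, at 3 counts per library. This bound covers counting error alone, because copies made by amplification are counted as separate reads. Of the stage markers, Il2ra and Cd4 followed the labels, but not every gene of the DN3 list did. Il2ra, Ptcra, Notch1 and Hes1 averaged higher in DN3 groups, Rag1, Rag2 and Cd3e averaged higher in DP groups, and Dntt went both ways. The 8 DN3 markers summed to 6148 to 7317 CPM in DN3 turnover and 3455 to 6715 CPM in DN3 autonomy. In DP turnover their sum was 5719 to 6298 CPM, and in DP autonomy 5412 to 5955 CPM. Il2ra, a DN3 surface marker, lay between 256 and 635 CPM in DN3 libraries and between 1.24 and 41.3 CPM in DP libraries. Cd4 lay between 640 and 897 CPM in DP libraries and at 8.01 CPM or below in 8 of 9 DN3 libraries. The exception was DN3 turnover RP1141B, with 135 CPM of Cd4, 386 CPM of Cd8a and 617 CPM of Cd8b1, against at most 7.34 CPM of Cd8a and 24.7 CPM of Cd8b1 in the other 3 DN3 turnover libraries. Its Il2ra level, 472 CPM, was within the range of its group. The 5 DN3 autonomy libraries also held Cd8a (38.9 to 72.3 CPM) and Cd8b1 (70.3 to 132 CPM) above those 3 libraries. Results that rest on DN3 turnover RP1141B are therefore given with and without it.

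The promoter sequences of 5 members whose levels differed between groups are printed below to show what lies upstream of the genes that the results turn on. Each is at most 250 bases that end where an annotated transcript starts, from RefSeq on build GRCm38.p6, read 5′ to 3′ on the strand of the gene. All 10 members matched the RefSeq promoter table. For Bcl2l1 the outermost of 3 starts is shown, at chr2:152831729-152831978 on the minus strand. Bcl2 is shown at chr1:106714291-106714540 on the minus strand, and Bid at chr6:120916854-120917074 on the minus strand, where 29 bases that lie in an annotated exon were left off. Bcl2l11 is shown at chr2:128125788-128126037 on the plus strand and Bbc3, at the second of 3 starts, at chr7:16310011-16310260 on the plus strand. Capitals mark matches, on either strand, to an E-box (CANNTG), a STAT site (TTCNNNGAA) or a FOXO site (TGTTTAC).
Bcl2 promoter: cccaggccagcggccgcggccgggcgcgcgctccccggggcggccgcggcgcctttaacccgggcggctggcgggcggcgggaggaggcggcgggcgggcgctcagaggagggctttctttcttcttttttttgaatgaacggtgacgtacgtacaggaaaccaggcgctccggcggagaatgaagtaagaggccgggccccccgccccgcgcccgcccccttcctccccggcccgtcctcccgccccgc
Bcl2l1 promoter: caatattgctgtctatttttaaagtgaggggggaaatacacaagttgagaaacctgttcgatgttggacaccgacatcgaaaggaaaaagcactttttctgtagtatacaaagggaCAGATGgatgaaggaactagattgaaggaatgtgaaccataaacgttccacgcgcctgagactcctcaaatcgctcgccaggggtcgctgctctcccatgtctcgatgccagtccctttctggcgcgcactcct
Bid promoter: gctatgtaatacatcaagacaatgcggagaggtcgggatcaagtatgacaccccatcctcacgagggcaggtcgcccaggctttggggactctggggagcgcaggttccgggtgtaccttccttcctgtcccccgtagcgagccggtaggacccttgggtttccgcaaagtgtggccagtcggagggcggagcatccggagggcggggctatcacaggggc
Bcl2l11 promoter: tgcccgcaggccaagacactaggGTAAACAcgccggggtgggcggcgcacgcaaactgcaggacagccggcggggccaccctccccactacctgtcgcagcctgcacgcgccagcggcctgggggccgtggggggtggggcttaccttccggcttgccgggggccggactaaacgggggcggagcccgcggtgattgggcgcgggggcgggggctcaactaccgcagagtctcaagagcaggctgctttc
Bbc3 promoter: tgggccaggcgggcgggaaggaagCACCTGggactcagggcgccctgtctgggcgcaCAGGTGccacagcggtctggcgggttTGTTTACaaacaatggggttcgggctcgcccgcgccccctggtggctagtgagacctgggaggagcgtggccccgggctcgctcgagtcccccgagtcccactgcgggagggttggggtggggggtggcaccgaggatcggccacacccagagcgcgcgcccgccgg
The Bcl2 and Bid windows held none of these letters. The Bcl2l1 window held 1 E-box, the Bcl2l11 window 1 FOXO match on the minus strand, and the Bbc3 window 2 E-boxes and 1 FOXO match. The other Bcl2l11 window and the other 2 Bbc3 windows, not printed, held no FOXO match. Of 32851 mouse promoter windows of 250 bases, 66.2% held an E-box, 7.02% a STAT site and 3.17% a FOXO site. A match is a stretch of letters and was not tested as a binding site, and these counts of mRNA do not measure binding.

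**Figure D1:**
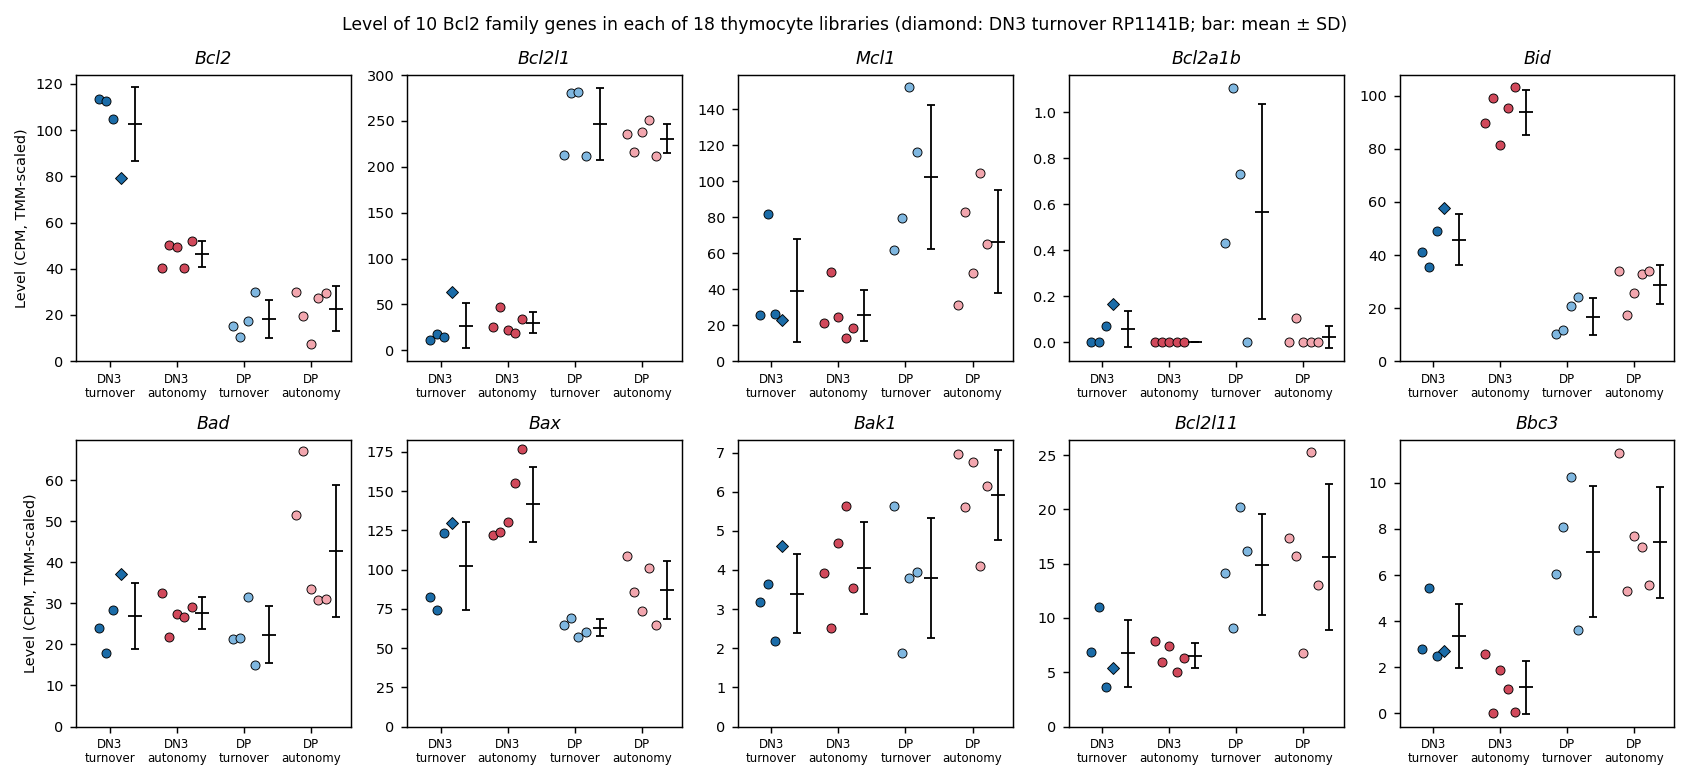
Level of the 10 members in each library, in CPM on linear axes that differ between panels, with 4 libraries per turnover group and 5 per autonomy group. Bars give mean ± SD, and the diamond is DN3 turnover RP1141B, which is the highest DN3 library for Bcl2l1. Bcl2l1 lies at 212 CPM or above in every DP library, and the DN3 turnover and autonomy libraries do not overlap for Bcl2 or Bid.

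Among the restraining members, Bcl2 was higher in DN3 than in DP cells, and Bcl2l1 was higher in DP than in DN3 cells. Bcl2, on chromosome 1 (GRCm38, 106538178 to 106714274, minus strand), stood at 114, 112, 105 and 79.2 CPM in the 4 DN3 turnover libraries RP1140A, RP1140B, RP1141A and RP1141B. In DN3 autonomy it stood at 40.5, 50.2, 49.5, 40.2 and 52.1 CPM in RP1133, RP1134, RP1135, RP1137 and RP1138. Every DN3 turnover library was above every DN3 autonomy library, and the lowest of the turnover libraries was RP1141B. In DP turnover the level was 15.3, 10.3, 17.3 and 29.98 CPM in RP1140A to RP1141B in the same order, and in DP autonomy 29.8, 19.4, 7.27, 27.5 and 29.7 CPM in RP1133, RP1135, RP1136, RP1137 and RP1138. The DP groups overlapped each other and lay wholly below both DN3 groups. The order of the means was therefore DN3 turnover (102 ± 16.0 CPM, SD, n = 4), DN3 autonomy (46.5 ± 5.69, n = 5), DP autonomy (22.7 ± 9.63, n = 5) and DP turnover (18.2 ± 8.37, n = 4), with no separation of the last pair.

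In DN3 cells Bcl2 was lower in autonomy than in turnover by a log2 change of -1.15 (SE 0.17, 2.22-fold, adjusted p = 0.00136 by edgeR's quasi-likelihood test with Benjamini-Hochberg adjustment over all genes tested). It was called without each of the 9 DN3 libraries in turn, at log2 changes of -1.25 to -1.08. In sorted bulk samples a lower level can come from fewer cells that carry the transcript or from less RNA in each cell, and these cannot be told apart. In DP cells the change was 0.30 (SE 0.45, 95% interval -0.67 to 1.26, adjusted p = 0.798). The difference between those effects was 1.46 (SE 0.47, 95% interval 0.48 to 2.44), with an adjusted p of 0.0763, over 0.05. It had an adjusted p of 0.0335 by DESeq2's Wald test, 0.0253 by edgeR without DP turnover RP1141B and 0.0133 by edgeR without DP autonomy RP1136. In edgeR it stayed over 0.05 in the other 16 of 18 fits with 1 library left out. The same held with A and B libraries summed, the RP number as a block, no filter on low counts or DESeq2 size factors. From DN3 to DP, Bcl2 fell by 2.48 on the log2 scale in turnover (SE 0.37, adjusted p = 3.12e-05) and by 1.03 in autonomy (SE 0.31, adjusted p = 0.0104). The autonomy call was lost in edgeR with the RP number as a block, at -0.78 (adjusted p = 0.0689). The values of these effects share libraries and are given side by side, not as separate evidence. Of the annotated Bcl2 exon bases, 6.09% also lie in exons of the antisense gene D630008O14Rik on the other strand.

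Bcl2l1, on chromosome 2 (152780668 to 152831728, minus strand), encodes Bcl-xL, which protects DP cells. It stood at 11.5, 17.5, 14.8 and 63.5 CPM in DN3 turnover RP1140A, RP1140B, RP1141A and RP1141B. In DN3 autonomy it stood at 25.9, 47.5, 22.3, 18.8 and 34.5 CPM in the library order given for Bcl2, which is kept for the genes that follow. The groups overlapped through RP1141B alone: the other 3 turnover libraries were below all 5 autonomy libraries. In DP turnover it stood at 213, 281, 281 and 212 CPM and in DP autonomy at 235, 217, 238, 251 and 212 CPM, in the same library orders. The DP groups overlapped fully, and the lowest DP library was more than the highest DN3 library in either condition.

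The rise of Bcl2l1 from DN3 to DP was the largest change of any member in either condition. In turnover it was 9.27-fold (log2 3.21, SE 0.42, adjusted p = 8.45e-06), and without DN3 turnover RP1141B it was 4.12 on the log2 scale. In autonomy it was 7.79-fold (log2 2.96, SE 0.37, adjusted p = 1.71e-06). Autonomy against turnover gave 0.15 for Bcl2l1 in DN3 cells (SE 0.47, 95% interval -0.86 to 1.15, adjusted p = 0.86) and -0.11 in DP cells (SE 0.13, 95% interval -0.40 to 0.18, adjusted p = 0.739). Without DN3 turnover RP1141B the DN3 value was 1.03, with an adjusted p of 0.0597. That library also held the Cd4, Cd8a and Cd8b1 levels given above, and the part of DP transcripts in the Bcl2l1 level of DN3 libraries was not tested.

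Mcl1, on chromosome 3 (95658788 to 95663176, plus strand), encodes a short-lived protein needed at several stages of thymocyte life. Its level was 25.6, 82.0, 26.3 and 22.8 CPM in DN3 turnover and 21.3, 49.7, 24.5, 13.1 and 18.3 CPM in DN3 autonomy. One library in each of these groups stood above the rest, RP1140B in turnover and RP1134 in autonomy. In DP turnover it was 62.0, 79.4, 152 and 116 CPM, and in DP autonomy 31.1, 82.7, 48.7, 104 and 65.1 CPM. The DN3 and DP ranges overlapped in both conditions. Mcl1 was higher in DP than in DN3 cells by 1.39 in turnover (SE 0.46, adjusted p = 0.0242) and by 1.40 in autonomy (SE 0.42, adjusted p = 0.00869). The turnover call was lost without DN3 turnover RP1140A, RP1141A or RP1141B or DP turnover RP1141A, with adjusted p of 0.0658 to 0.0828, and with A and B libraries summed (adjusted p = 0.107). Autonomy against turnover gave -0.63 in DN3 cells (SE 0.44, adjusted p = 0.351) and -0.64 in DP cells (SE 0.34, adjusted p = 0.363), and neither passed. Without DN3 turnover RP1140B the DN3 value was 0.018.

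Bcl2a1b, on chromosome 9 (89199209 to 89207827, plus strand), is one of several near-identical A1 genes. It had 3 reads in all of DN3 turnover, 0 in DN3 autonomy, 44 in DP turnover and 1 in DP autonomy, and no library passed 1.11 CPM. These counts were too low for the filter, so the gene was not tested in any comparison, and no fold is given. Reads of A1 genes can be split or lost between copies. Of the annotated Bcl2a1b exon bases, 49.1% also lie in Gm29094 exons on the same strand, and Gm29094 was at 0 CPM in every group. Whether reads were lost through these shared bases was not tested. The copies Bcl2a1a and Bcl2a1d had no more than 64 reads in any group. In DP cells they went the other way from Bcl2a1b. Bcl2a1a had 15 reads in DP turnover and 44 in DP autonomy, and Bcl2a1d had 14 and 64. In DN3 cells Bcl2a1a had 5 reads in turnover and 0 in autonomy, and Bcl2a1d had 29 and 8.

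**Figure D2:**
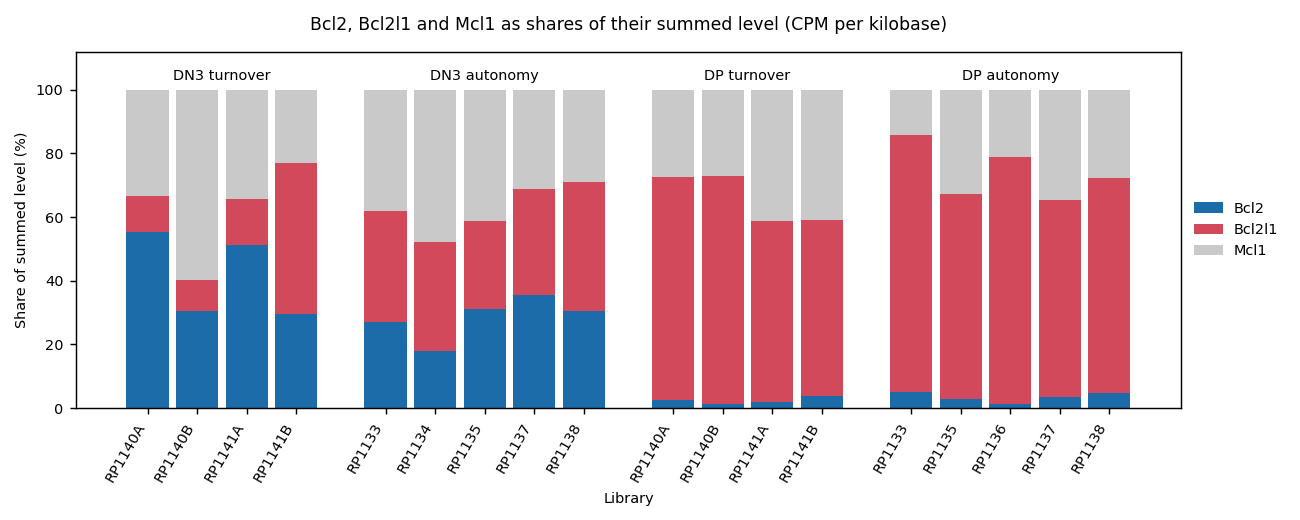
Share of Bcl2, Bcl2l1 and Mcl1 in their summed level in each of the 18 libraries, in percent of CPM per kilobase, as stacked bars. Bcl2 takes 18.03 to 55.4% of the sum in DN3 libraries and 1.19 to 5.11% in DP libraries, and Bcl2l1 takes 55.3 to 80.6% in DP libraries.

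Set side by side per kilobase, Bcl2 took a smaller share and Bcl2l1 a larger share of the 3 abundant restraining genes in DP than in DN3 libraries. Of the summed CPM per kilobase of Bcl2, Bcl2l1 and Mcl1, Bcl2 took 29.6 to 55.4% in DN3 turnover and 18.03 to 35.6% in DN3 autonomy. In DP cells it took 1.32 to 3.93% in turnover and 1.19 to 5.11% in autonomy, while Bcl2l1 took 55.3 to 71.5% and 62.0 to 80.6%. Mcl1 averaged 37.6% in DN3 turnover, 37.4% in DN3 autonomy, 34.1% in DP turnover and 26.2% in DP autonomy. In DN3 autonomy Bcl2 had the lowest mean of the 3, with overlapping ranges. The sum itself was 28.5 ± 8.35 CPM per kilobase in DN3 turnover, 19.0 ± 6.79 in DN3 autonomy, 85.8 ± 17.0 in DP turnover and 72.2 ± 9.64 in DP autonomy (SD, n = 4 or 5). The ratio of Bcl2l1 to Bcl2 per kilobase was 0.202 to 0.310 in 3 DN3 turnover libraries and 1.60 in RP1141B. It was 0.900 to 1.89 in DN3 autonomy, 14.1 to 54.3 in DP turnover and 14.3 to 65.4 in DP autonomy. These shares and ratios are descriptions without a test. They hold for mRNA only, and per-kilobase levels assume even coverage of exons.

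Of the pore formers, Bax was abundant and Bak1 was scarce in every group. Bax, on chromosome 7 (45461697 to 45466898, minus strand), stood at 82.6, 74.1, 123 and 130 CPM in DN3 turnover and at 122, 124, 130, 155 and 177 CPM in DN3 autonomy, with 2 of the turnover libraries, RP1141A and RP1141B, inside the autonomy range. In DP turnover it stood at 64.7, 69.3, 57.3 and 60.5 CPM, and in DP autonomy at 109, 85.9, 73.7, 101 and 64.7 CPM. The DP groups overlapped, and within each condition every DP library lay below every DN3 library. Bax was lower in DP than in DN3 cells by a log2 change of -0.69 in turnover (SE 0.21, adjusted p = 0.0132) and of -0.70 in autonomy (SE 0.18, adjusted p = 0.0038). The turnover call was lost without DN3 turnover RP1141A or RP1141B, with adjusted p up to 0.0776, and with the A and B libraries of an RP number summed (adjusted p = 0.154). It was also lost in edgeR with the RP number as a block (adjusted p = 0.0614). Autonomy against turnover gave 0.46 in DN3 cells (SE 0.20, 95% interval 0.03 to 0.89, adjusted p = 0.135) and 0.45 in DP cells (SE 0.20, 95% interval 0.02 to 0.88, adjusted p = 0.275). Neither passed after adjustment. Of the Bax exon bases, 12.2% also lie in exons of Gm45808 on the same strand, which was at 0 CPM in every group.

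Bak1, on chromosome 17 (27019810 to 27029009, minus strand), encodes the partner of Bax on the mitochondrial membrane. Its group means were 3.40 ± 1.01 CPM in DN3 turnover, 4.06 ± 1.18 in DN3 autonomy, 3.81 ± 1.53 in DP turnover and 5.92 ± 1.15 in DP autonomy (SD, n = 4 or 5), and its 18 libraries spanned 1.87 to 6.97 CPM. Annotated entries of Ggnbp1 on the other strand cover 18.2% and 7.35% of the Bak1 exon bases, and Ggnbp1 averaged 0.973 CPM or below by group. No comparison of Bak1 passed. The widest of its log2 changes in the single comparisons was 0.62 for DP autonomy against turnover (SE 0.66, adjusted p = 0.707). Per kilobase, Bax stood at 65.0 ± 17.8 against 1.41 ± 0.42 for Bak1 in DN3 turnover, at 89.8 ± 15.1 against 1.68 ± 0.49 in DN3 autonomy, at 40.0 ± 3.32 against 1.58 ± 0.64 in DP turnover and at 55.1 ± 11.7 against 2.46 ± 0.48 in DP autonomy.

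Among the BH3-only members, Bid was the gene that differed between autonomy and turnover. Bid, on chromosome 6 (120891930 to 120916853, minus strand), encodes a protein that is cut by caspase-8 and so ties death receptors to mitochondria. It stood at 41.0, 35.6, 49.2 and 57.8 CPM in DN3 turnover and at 89.8, 99.2, 81.4, 95.2 and 103 CPM in DN3 autonomy. Every autonomy library was above every turnover library, and RP1141B was the highest of the turnover libraries. The DP turnover libraries held 10.1, 11.8, 20.8 and 24.4 CPM and in DP autonomy at 33.9, 17.3, 25.8, 32.9 and 34.1 CPM. The DP groups overlapped through DP autonomy RP1135, and both lay below both DN3 groups.

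In DN3 cells Bid was 2.03-fold higher in autonomy (log2 1.02, SE 0.18, adjusted p = 0.0033), and it was called without each of the 9 libraries in turn, at log2 changes of 0.92 to 1.15. In DP cells the change was 0.76 (SE 0.36, 95% interval -0.02 to 1.53, adjusted p = 0.306). The difference between those effects was -0.26 (SE 0.37, adjusted p = 0.767), so a difference between the cell types was not shown. From DN3 to DP, Bid fell by 1.44 on the log2 scale in turnover (SE 0.28, adjusted p = 0.000525) and by 1.70 in autonomy (SE 0.25, adjusted p = 1.38e-05). Of the annotated Bid exon bases, 17.7% also lie in Bcl2l13 exons on the other strand, and the sources used here do not say whether reads were counted by strand. Bcl2l13 itself stood at 25.4 ± 3.09 CPM in DN3 turnover and 31.4 ± 2.73 CPM in DN3 autonomy (SD, n = 4 and 5), a log2 change of 0.29 with an adjusted p of 0.306.

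Bad, on chromosome 19 (6941861 to 6951899, plus strand), encodes a BH3-only protein held inactive by growth factor signals. It stood at 23.9, 18.03, 28.3 and 37.1 CPM in DN3 turnover and at 32.6, 21.9, 27.3, 26.7 and 29.2 CPM in DN3 autonomy, and those groups overlapped throughout. In DP turnover it stood at 21.3, 21.6, 31.6 and 14.9 CPM, and in DP autonomy at 51.4, 67.2, 33.6, 30.8 and 31.1 CPM. Only the highest DP turnover library, RP1141A, reached into the DP autonomy range. The DP change was 0.92 (SE 0.33, 95% interval 0.21 to 1.64, adjusted p = 0.168), which did not pass. DP against DN3 gave -0.25 in turnover (SE 0.31, adjusted p = 0.567) and 0.64 in autonomy (SE 0.27, adjusted p = 0.0588). The second had an adjusted p of 0.0371 by DESeq2's Wald test and 0.0336 in a fit of the autonomy libraries alone, and it was between 0.0379 and 0.05 in edgeR without DP turnover RP1140B or RP1141B or DP autonomy RP1136, RP1137 or RP1138. Exons of Gpr137 on the other strand cover 20.5% of the Bad exon bases, and Gpr137 levels averaged between 4.09 and 7.16 CPM by group.

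Bcl2l11, on chromosome 2 (128126038 to 128162547, plus strand), encodes Bim, the main trigger of death in negative selection. Its level was 6.90, 10.97, 3.66 and 5.42 CPM in DN3 turnover, and 7.92, 5.92, 7.38, 5.04 and 6.32 CPM in DN3 autonomy. In DP turnover it was 14.1, 9.06, 20.2 and 16.2 CPM, and in DP autonomy 17.3, 15.7, 6.76, 25.3 and 13.1 CPM. In each condition 1 DP library, RP1140B in turnover and RP1136 in autonomy, lay within the DN3 range and the others above it. Bcl2l11 was higher in DP cells by 1.15 in turnover (SE 0.44, adjusted p = 0.0466) and by 1.27 in autonomy (SE 0.39, adjusted p = 0.0113). The turnover call was lost without any 1 of 10 of the 18 libraries, with adjusted p up to 0.147: DN3 turnover RP1140A, RP1141A or RP1141B, DN3 autonomy RP1135, DP turnover RP1140A, RP1141A or RP1141B, and DP autonomy RP1133, RP1135 or RP1138. Its adjusted p was 0.106 with no filter on low counts, 0.222 with A and B libraries summed and 0.0839 in a fit of the turnover libraries alone. With the RP number as a block in edgeR, both calls were lost, with adjusted p of 0.117 in turnover and 0.054 in autonomy. Autonomy against turnover gave -0.06 in DN3 cells (SE 0.38, adjusted p = 0.937) and 0.05 in DP cells (SE 0.43, adjusted p = 0.969).

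Bbc3, on chromosome 7 (16308393 to 16318205, plus strand), encodes Puma, a p53 target. It stood at 2.77, 5.45, 2.46 and 2.71 CPM in DN3 turnover and at 2.58, 0, 1.89, 1.06 and 0.0527 CPM in DN3 autonomy, where 4 of 5 libraries had any read. The DP turnover libraries held 6.06, 8.10, 10.3 and 3.63 CPM and in DP autonomy at 11.3, 5.29, 7.69, 7.23 and 5.55 CPM. In autonomy every DP library was above every DN3 library, whereas in turnover DP RP1141B lay below DN3 RP1140B. The DP over DN3 change in autonomy was 2.72 (SE 0.81, 6.60-fold, adjusted p = 0.00892) and in turnover 1.07 (SE 0.85, 95% interval -0.71 to 2.85, adjusted p = 0.362). Autonomy against turnover in DN3 cells gave -1.59 (SE 0.92, 95% interval -3.58 to 0.40, adjusted p = 0.256). The test of that effect in DP against DN3 cells gave 1.65 (SE 1.15, adjusted p = 0.458).

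**Figure D3:**
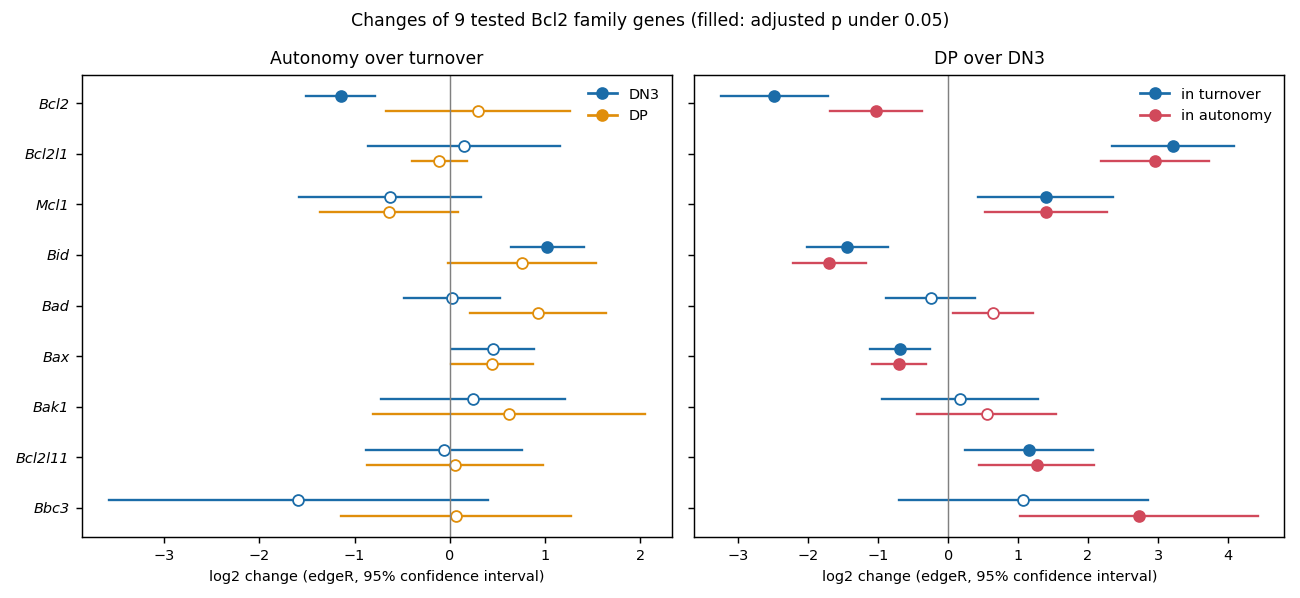
Log2 change of the 9 tested members, autonomy over turnover in DN3 and DP cells (left) and DP over DN3 in each condition (right), as points with 95% confidence intervals from edgeR. Filled points have an adjusted p under 0.05: Bcl2 (-1.15) and Bid (1.02) in DN3 cells on the left, 6 members in turnover and 7 in autonomy on the right.

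Counted together, 9 of the 10 members passed the filter on low counts in every comparison, all but Bcl2a1b. In DN3 cells, 2 of the 9 differed between autonomy and turnover, Bid higher and Bcl2 lower, where 14.9% of all 10766 genes tested were called (6.53% higher and 8.35% lower). The same 2 members had groups that did not overlap, as did 18.3% of all genes. The count of 2 was the same without each DN3 library in turn, RP1141B included. In DP cells, 0 of the 9 were called by edgeR, where 1.72% of 10339 genes were called, and 0 had groups that did not overlap, as did 8.11% of all genes. At an unadjusted p under 0.05 there were 2 of the 9, Bad and Bax, both higher in autonomy, against 17.1% of all genes. DESeq2's Wald test called 0. The median log2 change of the 9 was 0.03 in DN3 cells, against -0.05 over all genes tested, and 0.30 in DP cells, against -0.02.

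Between the stages, 6 of the 9 differed in turnover, where 34.9% of 11521 genes were called, and 7 of the 9 in autonomy, where 49% were. Bcl2l1, Mcl1 and Bcl2l11 were higher and Bcl2, Bid and Bax lower in DP cells in both conditions, and Bbc3 was higher in autonomy. Of all genes, 15.8% were called higher and 19.1% lower in turnover, and 23.7% higher and 25.2% lower in autonomy. The DN3 and DP groups did not overlap for 4 members in turnover (Bcl2, Bcl2l1, Bid and Bax), as for 34.8% of all genes, and for 5 in autonomy (those and Bbc3), as for 38%. Of all genes, 27.8% were called in the same direction in both conditions. In turnover the count was 3 without DN3 turnover RP1141A and 3 without DN3 turnover RP1141B, where Bcl2, Bcl2l1 and Bid were called. In autonomy it was 7 or 8 without any 1 library, Bad being the eighth. The DP minus DN3 difference in the effect of autonomy passed for 0 of the 9 by edgeR, against 5.49% of all genes, and 2 of the 9, Bcl2 and Bad, had an unadjusted p under 0.05, against 19.9% of all genes. DESeq2's Wald test called 1, Bcl2.

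In the order of levels per kilobase, Bax led the family in DN3 turnover, DN3 autonomy and DP autonomy, and Bcl2l1 led in DP turnover (53.8 ± 8.66 CPM per kilobase, against 40.0 ± 3.32 for Bax). In DP autonomy the ranges of Bax and Bcl2l1 (50.3 ± 3.51) overlapped. In DN3 turnover Bid, Mcl1, Bcl2 and Bad followed Bax at 12.9, 11.5, 11.2 and 10.5 CPM per kilobase, with each range overlapping the next. In DN3 autonomy Bid alone took the place after Bax, at 26.4 ± 2.41, apart from Bad at 10.8 ± 1.52, and Bcl2 came sixth at 5.08 ± 0.62. In DP cells the third place went to Mcl1, at 29.96 ± 11.7 in turnover and 19.4 ± 8.36 in autonomy, and Bcl2 was seventh, at 1.99 ± 0.91 and 2.48 ± 1.05. Bak1, Bcl2l11 and Bbc3 stayed at 3.49 or below in every group mean.

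The authors' deposited table for DN3 cells, autonomy against turnover, gives Bcl2 a log2 fold change of -1.14 with an adjusted p of 4.3e-08 and Bid one of 1.04 with an adjusted p of 3.5e-06. These are 2 of the 9 members with an adjusted p in the authors' deposited table, where 19.3% of genes are under 0.05. In the authors' deposited table for DP cells, 0 of 9 members are under 0.05, against 7.67% of genes, and the lowest is Bad with a log2 fold change of 0.92 and an adjusted p of 0.0693.

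Marker lists of other cells were summed beside Bcl2 and Bid, and in 5 of them 1 gene made up most of the DN3 sum. The sum of 6 early progenitor markers was 38.5 to 85.2 CPM in DN3 turnover and 5.51 to 27.2 CPM in DN3 autonomy. Kit carried it (54.6 ± 20.04 against 11.1 ± 8.50 CPM, SD, n = 4 and 5), Mef2c was also lower on average in autonomy, Cd44 was similar, and Flt3, Cd34 and Lyl1 averaged higher there, at 2.05 CPM or below. The sum of 6 macrophage markers was 17.3 to 35.8 against 1.87 to 12.2 CPM, mostly Lyz2 (26.3 against 4.22 CPM on average), with C1qc and Adgre1 at 0 in turnover. The sum of 5 dendritic markers was 13.1 to 29.4 against 2.52 to 10.1 CPM, mostly H2-Ab1 (19.1 against 4.92 CPM), with Itgax and Siglech at 0 in autonomy. Of 5 thymic epithelial markers, summing to 90.3 to 113 against 29.1 to 83.6 CPM, Epcam made up nearly all (101 against 42.7 CPM), while Foxn1, Krt5, Krt8 and Psmb11 averaged 0.160 CPM or below. Of 6 NK markers, summing to 1224 to 1707 against 1850 to 2512 CPM, Gzma was higher in autonomy (1313 against 2055 CPM) and Nkg7 lower (142 against 18.7 CPM), and the other 4, Ncr1, Klrb1c, Klrd1 and Eomes, averaged 0.475 CPM or below. The sum of the 8 DP markers was 678 to 2798 against 577 to 986 CPM, highest in RP1141B. In DP cells, the DP marker sum was 9243 to 10292 CPM in turnover and 10713 to 11583 CPM in autonomy. The macrophage sum there was 2.48 to 22.7 CPM in turnover and 16.1 to 124 CPM in autonomy, with C1qc at 0 in all turnover libraries and at 3.90 to 32.6 CPM in autonomy, and the dendritic sum was 5.26 to 16.7 against 5.40 to 180 CPM. The part of these markers in the member changes was not tested. Without DN3 turnover RP1141B, Bcl2 changed by -1.25 and Bid by 1.15 in DN3 cells, both still called.

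Other genes of the death pathway were described in 7 lists of 70 genes. In DN3 cells 60 of them were tested, of which 7 were higher and 5 lower in autonomy, or 20%. Of all genes 14.9% were called, 6.53% higher and 8.35% lower. Of 12 mitochondrial and BH3 cofactors, 4 rose in autonomy and 0 fell, with a median log2 change of 0.40 against -0.05 over all genes. Mtch2, a docking protein for Bid on mitochondria, rose by 0.87 (98.4 ± 14.6 to 181 ± 17.0 CPM, SD, n = 4 and 5, adjusted p = 0.00287). Dynll1, a dynein light chain that binds Bim, rose by 0.76 (adjusted p = 0.00981). Vdac2, a channel that holds Bak1 at mitochondria, rose by 0.55 (adjusted p = 0.0198), a call lost without DN3 turnover RP1140A or DN3 autonomy RP1137.

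Of 7 other Bcl2 family genes tested out of 15 listed, 0 rose and 2 fell in DN3 autonomy. These were the mitophagy receptors Bnip3l, by -0.89 (131 ± 28.0 to 71.1 ± 9.55 CPM, adjusted p = 0.00633), and Bnip3, by -1.84 (5.54 ± 2.02 to 1.57 ± 1.03 CPM, adjusted p = 0.049). The Bnip3 call was lost without 8 of the 9 libraries, all but DN3 autonomy RP1134, with adjusted p up to 0.12. Of 8 apoptosome genes and caspases, 2 rose and 0 fell. Among them was Cycs, cytochrome c, which rose by 0.62 (adjusted p = 0.048). The Cycs call was lost without DN3 turnover RP1140A, RP1140B or RP1141B or DN3 autonomy RP1133, RP1137 or RP1138. Of 7 IAP genes and antagonists, 1 rose and 0 fell. It was Birc5, or survivin, which also serves cell division, by 1.06 (171 ± 45.9 to 360 ± 41.6 CPM, adjusted p = 0.00353). Of 7 death receptor and adaptor genes and 5 nuclease and execution genes, 0 passed by edgeR. In each list 2 had an unadjusted p under 0.05, against 31.4% of all genes. DESeq2's Wald test called 1 of the first list, lower, and 0 of the second, where it called 1130 of all genes higher and 1324 lower.

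Among 14 tested upstream regulators, 0 rose and 3 fell in DN3 autonomy. Egr1, an immediate early gene of receptor signalling, changed by -1.68 (adjusted p = 0.042), Nr3c1, the glucocorticoid receptor, by -1.08 (adjusted p = 0.0183), and Stat5a, which carries interleukin 7 signals, by -0.75 (adjusted p = 0.0486). The Egr1 call held only without DN3 autonomy RP1133 or RP1138 and was lost without each of the other 7 libraries. The Stat5a call was lost without DN3 turnover RP1140A, RP1140B or RP1141B or DN3 autonomy RP1134, RP1137 or RP1138, and the Nr3c1 call without DN3 turnover RP1140A or RP1140B. With A and B libraries summed, the DN3 calls of Vdac2, Cycs, Bnip3, Egr1, Nr3c1 and Stat5a were lost. Those of Bnip3 and Stat5a were also lost in the 18-library model, that of Bnip3 with no filter on low counts and that of Stat5a with DESeq2 size factors. Il7r, the receptor itself, stood at 145 ± 28.5 CPM in DN3 turnover and 139 ± 53.4 CPM in DN3 autonomy (SD, n = 4 and 5). In DP cells 1 of 61 tested genes of the 7 lists passed, or 1.64% against 1.72% of all genes. It was Dynll1, which rose in autonomy by 1.04 (226 ± 55.7 to 468 ± 129 CPM, adjusted p = 0.0301). That call was lost without DP turnover RP1140B, RP1141A or RP1141B or DP autonomy RP1135 or RP1137 and with A and B libraries summed. At an unadjusted p under 0.05 there were 15 of the 61, against 17.1% of all genes. DESeq2's Wald test called 5 higher and 4 lower, where it called 438 of all genes higher and 416 lower.

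**Figure D4:**
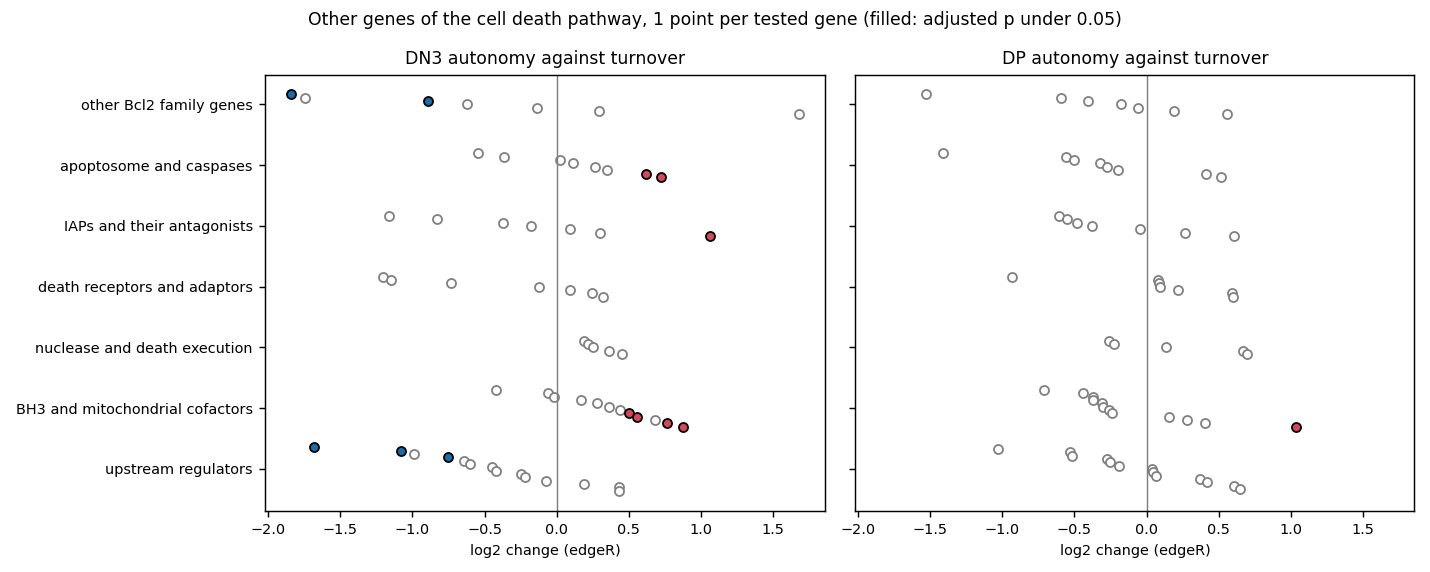
Log2 change, autonomy over turnover, of the tested genes of 7 death pathway lists, 1 point per gene, in DN3 cells (left) and DP cells (right), on the same scale. Filled points had an adjusted p under 0.05: 7 above and 5 below 0 in DN3 cells and 1, Dynll1, in DP cells. Il7r and Nr4a3 are left out on the right because no DP turnover library had a read of them.

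Between the stages, 29 of 63 tested genes of these lists differed in turnover (13 higher and 16 lower in DP cells, 46.0% against 34.9% of all genes) and 41 of 63 in autonomy (19 higher and 22 lower, 65.1% against 49%). Of 7 death receptor and adaptor genes, 3 were higher and 1 lower in DP cells in each condition. Fas, the receptor of Fas ligand, rose from 19.4 ± 22.7 to 262 ± 33.8 CPM in turnover (log2 3.77, adjusted p = 7.53e-05) and from 8.44 ± 3.69 to 282 ± 40.6 CPM in autonomy (log2 5.05, adjusted p = 5.21e-07). Without DN3 turnover RP1141B, the turnover change of Fas was 5.04. Cflar, the inhibitor of caspase-8 recruitment, rose by 1.43 in turnover (adjusted p = 0.00186) and by 2.26 in autonomy (adjusted p = 3.31e-06), and Tnfrsf1a by 1.05 (adjusted p = 0.0292) and 2.28 (adjusted p = 1.33e-05). The turnover call of Tnfrsf1a was lost without DN3 turnover RP1140A, RP1141A or RP1141B or DP turnover RP1140B. Tradd was lower in DP cells in turnover by -1.01 (adjusted p = 0.00193) and Ripk1 in autonomy by -0.67 (adjusted p = 0.0462). The Ripk1 call was lost without 13 of the 18 libraries, RP1141B among them.

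Of 5 nuclease and execution genes, 3 fell in each condition, among them Endog, a mitochondrial nuclease, by 1.99 on the log2 scale in turnover (adjusted p = 9.91e-06) and by 2.31 in autonomy (adjusted p = 1.44e-07). The others were Parp1 (-1.34 and -1.92) and Aifm1 (-0.91 and -1.39). Dffa rose in autonomy by 0.59 (adjusted p = 0.0244), a call lost without DN3 autonomy RP1137 or RP1138 or DP autonomy RP1135. Of 8 apoptosome genes and caspases, Cycs fell in both conditions (-1.50 and -1.60), Apaf1, which binds cytochrome c, rose in turnover by 1.42 (adjusted p = 0.0147, lost without DP turnover RP1141A), and Casp6 rose in autonomy (0.62). Of 12 mitochondrial cofactors, 0 rose and 4 fell in turnover and 0 rose and 8 fell in autonomy, with medians of -0.44 and -0.78 against -0.04 and 0.00 over all genes. Mtch2, which had risen in DN3 autonomy, was lower in DP cells by -0.60 in turnover and -1.74 in autonomy, and Vdac3 by -0.61 and -1.36. Vdac2 fell by 0.79 on the log2 scale in turnover and Vdac1 by 1.46 in autonomy. Each is named only in the condition where it was among the 3 largest falls of the list.

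Of 7 IAP genes and antagonists, 3 rose and 1 fell in turnover, and 3 rose and 2 fell in autonomy. Birc2 rose by 1.12 and 1.58 and Birc6 by 1.05 and 0.95, while Htra2, a protease released from mitochondria, fell in both conditions (-1.17 and -0.99). Xiap rose in turnover (0.75, adjusted p = 0.0458), a call lost without any 1 DN3 turnover library, RP1141B included, and without DP turnover RP1140B or RP1141A. Birc3 rose (2.19) and Birc5 fell (-1.20) in autonomy. Of 9 tested other Bcl2 family genes, Bcl2l14 fell in both conditions, from 28.6 ± 2.28 to 1.47 ± 1.92 CPM in turnover (adjusted p = 0.00826) and from 18.7 ± 5.18 to 0.302 ± 0.674 CPM in autonomy (adjusted p = 0.000339). In autonomy 3 rose: the BH3-only gene Bmf by 2.98 (1.09 ± 0.721 to 8.57 ± 3.01 CPM, adjusted p = 0.000586), Bnip3 by 2.28 and Bnip3l by 1.74.

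Of 15 tested upstream regulators, 6 were higher and 5 lower in DP cells in turnover, and 8 were higher and 4 lower in autonomy. Nr4a1, a nuclear receptor induced by T-cell receptor signals, rose by 1.72 and 2.75. The turnover call of Nr4a1 was lost without DP turnover RP1140B. Foxo1 rose in turnover by 1.79 (adjusted p = 0.000578), and Egr1 rose in autonomy by 3.70 (adjusted p = 1.47e-06). Myc fell by 4.02 on the log2 scale in turnover and fell by 4.61 in autonomy, and Nfkb1 fell by 1.18 in autonomy. Foxo1, Egr1 and Nfkb1 are named only in the condition where each was among the 3 largest changes in its direction. Il7r stood at 145 ± 28.5 CPM in DN3 turnover and had 0 reads in all 4 DP turnover libraries, which makes it at least 558-fold lower against a floor of 3 counts per library. In autonomy it went from 139 ± 53.4 to 2.16 ± 2.04 CPM (adjusted p = 8.23e-08). Nr4a3 was also called lower in turnover, from 0.231 ± 0.230 CPM in DN3 cells to 0 reads in DP cells. That DN3 mean is near the floor of 3 counts, so no fold is given. The median of this list was 0.53 in turnover, or 0.62 with Il7r at its bound and Nr4a3 left out, and 1.13 in autonomy. With A and B libraries summed, the turnover calls of Tnfrsf1a, Tradd, Aifm1, Apaf1, Mtch2, Vdac3, Xiap, Nr4a1 and Nr4a3 were lost. With no filter on low counts, the turnover calls of Xiap and Nr4a3 and the autonomy calls of Ripk1 and Dffa were lost, and that of Ripk1 was also lost in a fit of the autonomy libraries alone.

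The effect of autonomy differed between DP and DN3 cells for 9 of 63 tested genes of these lists, 5 higher and 4 lower, or 14.3% against 5.49% of all genes (2.88% higher and 2.61% lower). For Bnip3l the DP minus DN3 difference was 1.46 (adjusted p = 0.000682), from a fall of -0.89 in DN3 cells and a DP value of 0.56 that did not pass (adjusted p = 0.0629). For Birc5 it was -1.62 (adjusted p = 0.00201), from a rise of 1.06 in DN3 cells and a DP value of -0.55 that did not pass. For Mtch2 it was -1.13 (adjusted p = 0.00542), from a rise of 0.87 in DN3 cells and a DP value of -0.26 that did not pass. These 3 differences were called without each library in turn, but that of Mtch2 was not called with A and B libraries summed. The others included Casp6 (0.96), Vdac3 (-0.74), Egr1 (2.32), Il7r and Nr4a3, the last pair set against DP turnover libraries with no reads. With 1 library left out at a time, the Vdac3 call was lost without 14 of 18 libraries and the Nr4a3 call in 12 of 14 fits that tested it. The Egr1 call was lost without 7 of 18 libraries and the Casp6 call without 6 of 18. DN3 turnover RP1141B was among the libraries for each of these calls, which were also lost with A and B libraries summed.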

How the data were processed

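RNA sequencing counts of 18 libraries of sorted thymocytes were used. The authors deposited raw whole-number counts per Ensembl gene, made with FastQC, HISAT2 and featureCounts on builds mm10 and GRCm38, per the submitters' processing notes. The sources used here do not give versions or the use of strand. The authors also deposited 1 DESeq2 table per cell type, per the file headers, which holds a mean normalized signal, log2 fold changes with standard errors, a test statistic (a score), p-values and adjusted p-values. From it only gene names and the values quoted as the authors' were used.

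Here CPM was computed from the counts with TMM factors, and per kilobase with exon lengths of the GENCODE M21 annotation of GRCm38, by which all 10 members matched. Tests were edgeR 4.0.16 (glmQLFit, glmQLFTest, filterByExpr, TMM) in R 4.3.3, two-sided, with Benjamini-Hochberg adjustment over all genes tested and a threshold of 0.05. Within each cell type, autonomy was set against turnover. DP against DN3 and the difference of effects came from 1 model of all 18 libraries with 4 group means. SEs were taken as the log2 change divided by the root of the F statistic. Alternatives were DESeq2 1.42.0, its size factors in edgeR, no filter, A and B libraries summed, other sets of libraries, a block by RP number, and each library left out. Alternatives for the 7 pathway lists were chosen after seeing the data. All 10 members are named in every comparison, and of each pathway list up to 3 genes per direction with the largest change past the threshold. Some genes of the lists are counted but not reported here by name. Members and lists were chosen with earlier results of these data known. The fits were tested on simulated data. No 2 libraries agreed within sampling noise.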

Additional observations from a re-analysis of the deposited data

Results flagged for a closer look

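Of 40 sets of values, 1 per member and group, 4 held a library that stood far from the others of its group by Dixon's rule on the gap over the range. The nominal rate of that rule, 1 in 20, assumes normally spread values. CPM need not be so spread, and the count of 4 is therefore not set against chance. Bcl2l1 in DN3 turnover RP1141B was 63.5 CPM, against 11.5 to 17.5 CPM in the other 3 libraries, and the same library held 135 CPM of Cd4. In DN3 turnover RP1140B, Mcl1 was 82.0 CPM, against 22.8 to 26.3 CPM in the others, and Bbc3 was 5.45 CPM, against 2.46 to 2.77 CPM. Bcl2a1b in DP autonomy RP1135 was 0.106 CPM, from 1 read, where the other 4 libraries had 0, a pattern that this rule always flags.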

How the results depend on the processing

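The Bcl2 and Bid calls in DN3 cells, and those of Bcl2, Bcl2l1 and Bid between the stages in turnover, were kept under every alternative run. Of 891 alternative values of the 9 tested members, 813 kept direction and side of the threshold, 25 lost the call, 11 gained one and 42 changed sign, none of the last in a call. Counts of all genes moved more: in DN3 cells from 1602 to 2454 by DESeq2's Wald test, 507 with A and B libraries summed, 1006 in the 18-library model and 811 to 1784 without 1 library, and in DP cells from 178 to 854, 16, 279 and 33 to 252. The DN3 count moved by over 1.5 times without turnover RP1140A (811) or autonomy RP1137 (953) or RP1138 (1060), and the DP count without turnover RP1140B (33), RP1141A (67) or RP1141B (59) or autonomy RP1133 (66) or RP1135 (98). For DP against DN3 in turnover, summing A and B gave 2170 genes and 3 members, and leaving out 1 library 3 to 6 members. For the difference of effects, DESeq2 gave 1113 genes and 1 member, summing A and B 145 genes, and leaving out 1 library 0 to 1 members (Bcl2, without DP turnover RP1141B or DP autonomy RP1136).

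Changes that passed no test reversed with the libraries used. With A and B summed, Bbc3 in DP cells was -0.083, Bak1 between stages in turnover -0.0024 and the Mcl1 difference of effects -0.047, which was -0.0035 with DESeq2 size factors and -0.0093 by DESeq2. Without 1 library the DN3 changes ran from -0.10 to 1.03 for Bcl2l1, -1.03 to 0.018 for Mcl1, -0.13 to 0.22 for Bad and -0.25 to 0.28 for Bcl2l11. The DP changes ran from -0.19 to 0.24 for Bcl2l11 and -0.15 to 0.30 for Bbc3, and Bak1 between stages in turnover from -0.052 to 0.42. The differences of effects ran from -1.14 to 0.0012 for Bcl2l1, -0.65 to 0.38 for Mcl1, -0.16 to 0.12 for Bax and -0.22 to 0.32 for Bcl2l11. The cause was not tested.

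The labels do not say whether an RP number shared by DN3 and DP libraries is 1 graft. Of 8 shared numbers, 0 had deviations from the group means that correlated over 0.1 (-0.0321 to 0.0661), and 3 were best matched by their own number. These correlations cannot settle the pairing, because differences between the preparations of each cell type also enter them. With the replicate block by RP number, the difference of effects passed for 291 genes, from 633. Between the stages, 4 member calls were lost under this replicate block: in autonomy Bcl2 at -0.78 (adjusted p = 0.0689) and Bcl2l11 at 1.40 (0.054), and in turnover Bax at -0.65 (0.0614) and Bcl2l11 at 1.21 (0.117). Among the pathway genes named, it also lost the turnover calls of Xiap and Nr4a3, the autonomy calls of Casp6 and Ripk1, and the differences of effects of Mtch2, Vdac3, Casp6 and Nr4a3. Low counts of Bcl2a1b, Bbc3 and Bak1 limit what could be detected for them.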
